A study of Homo sapiens with 5 samples.

Results

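COX1, COX2, COX3, CYTB, ATP6 and ATP8 are the protein-coding RNAs of the human mitochondrial genome that do not belong to complex I. They were taken from the deposited table by their symbols, written there without the MT prefix, and all 6 of 6 were found among 25702 genes. COX1, COX2 and COX3 encode the catalytic core of cytochrome c oxidase (complex IV), CYTB encodes the cytochrome b of complex III, and ATP6 and ATP8 encode membrane subunits of the ATP synthase (complex V). The Entrez gene IDs are 4512 for COX1, 4513 for COX2, 4514 for COX3, 4519 for CYTB, 4508 for ATP6 and 4509 for ATP8. The deposited gene lengths are 1542, 684, 784, 1141, 681 and 207 nucleotides in the same order.

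Mitochondrial DNA is transcribed inside the organelle into long RNAs that span many genes, and the tRNAs lying between the mRNAs are cut out to release them. The genes of all 6 RNAs lie on the same strand and share a precursor. ATP8 and ATP6 overlap and are carried by the same mature RNA. Along the genome the order is COX1, COX2, ATP8, ATP6 and COX3, with CYTB near the end after the complex I genes and after ND6, the only mRNA gene of the opposite strand. PSF, the protein encoded by SFPQ, is an RNA-binding protein known mainly from the nucleus, where it takes part in paraspeckles, transcription and splicing.

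The libraries came from LTAD cells, a human prostate cancer line grown in medium with charcoal-treated serum. They comprise 2 libraries of RNA immunoprecipitated with PSF (PSF-RIP) from cells given 5 µM No.10-3, a small molecule known here by its code name, 1 PSF-RIP library from cells given DMSO vehicle, and 2 input libraries of the lysate, 1 from each treatment. The columns of the inputs are not named by treatment, so they form 1 group and are called input a and input b. The labels give no immunoprecipitation with a control antibody among these samples, and are silent on whether the pair of No.10-3 precipitations stems from separate cultures. The p-values measure only the spread between these libraries, which may be technical. They and the standard errors (SE) take each gene's spread mostly from a trend over all genes, with 2 residual against 38.53 prior degrees of freedom.

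The libraries held 1519362 counts over genes in No.10-3 PSF-RIP replicate 1, 3368252 in replicate 2, 2181770 in vehicle PSF-RIP, 4010376 in input a and 3083063 in input b. Log2 counts per 1000000 (CPM) correlated across the 13321 tested genes with r = 0.914 between the No.10-3 PSF-RIP libraries, 0.942 and 0.904 between No.10-3 replicates 1 and 2 and vehicle PSF-RIP, 0.759 to 0.866 between a PSF-RIP library and an input, and 0.941 between the inputs. Replicate 1 was thus closer to vehicle than to replicate 2. Genes are no replicates, so these values only describe the libraries. Markers of luminal prostate cells were found in every library (9 of 9), and the immune markers PTPRC, CD3E and CD14 were at 0 in all of them. Of the stromal and endothelial markers, DCN and CDH5 were at 0 throughout. COL1A2, COL3A1 and PECAM1 stood at 0.891 CPM or less in every library, the first pair seen in No.10-3 PSF-RIP alone and PECAM1 in input a alone. COL1A1 stood at 50.7 and 50.2 CPM in No.10-3 PSF-RIP and 75.2 CPM in vehicle PSF-RIP, against 3.74 and 1.95 CPM in the inputs, and VWF at 14.5 and 5.94 CPM in No.10-3 PSF-RIP and 10.1 CPM in vehicle PSF-RIP, against 0.997 and 0.324 CPM in the inputs. The part of such cells in the results was not tested.

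The 6 RNAs together took a smaller share of PSF-RIP libraries than of inputs. In No.10-3 PSF-RIP they held 6.81% of the counts of replicate 1 (6.77 to 6.85% as Wilson's interval at 95%) and 5.71% of those of replicate 2 (5.69 to 5.74%). In vehicle PSF-RIP they held 3.94% (3.92 to 3.97%). Input a held 18.4% (18.4 to 18.5%) and input b 17.4% (17.3 to 17.4%). These intervals cover counting error only, and sequenced reads without molecular identifiers are not independent molecules. The 3 PSF-RIP libraries lay apart from both inputs, and both No.10-3 libraries lay above vehicle. Set against the mRNAs of the nuclear genome in the same library, the gap was wider. There were 9.25 and 6.95 counts of the 6 RNAs per 100 counts of nuclear protein-coding genes in No.10-3 PSF-RIP and 5.18 in vehicle PSF-RIP, against 112.1 and 108.9 in the inputs. These shares describe what each library held and do not give an amount of RNA per cell.

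The wider gap goes with what else the libraries held. The small noncoding RNAs RN7SK, RN7SL1, RN7SL2, RPPH1 and RMRP took 6.70% and 2.63% of counts in No.10-3 PSF-RIP and 7.81% in vehicle PSF-RIP, against 51.7% and 55.0% in the inputs. Nuclear protein-coding genes took 73.6% and 82.1% in No.10-3 PSF-RIP and 76.1% in vehicle PSF-RIP, against 16.4% and 15.9% in the inputs. CPM on library totals therefore gives the share of all counted RNA. Scaling by TMM factors, which set the typical gene to no change, gives the level relative to the typical gene, and both are stated below.

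COX1, the largest and most counted of the 6, stood at 33677 and 27494 CPM in No.10-3 PSF-RIP and 18036 CPM in vehicle PSF-RIP, against 66715 and 59825 CPM in the inputs. CYTB stood at 14800 and 12537 CPM in No.10-3 PSF-RIP and 9060 CPM in vehicle PSF-RIP, against 43411 and 38683 CPM in the inputs. For both RNAs every PSF-RIP library lay below both inputs and every No.10-3 library above vehicle. COX3 stood at 9045 and 7848 CPM in No.10-3 PSF-RIP and 5797 CPM in vehicle PSF-RIP, against 45824 and 41901 CPM in the inputs, the widest gap of the 6 on this scale. COX2 stood at 4795 and 5042 CPM in No.10-3 PSF-RIP and 3177 CPM in vehicle PSF-RIP, against 13888 and 19727 CPM in the inputs. The inputs differed more for COX2 than for COX1, COX3 or CYTB, yet both lay above all PSF-RIP libraries.

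ATP6 stood at 5280 and 3728 CPM in No.10-3 PSF-RIP and 3123 CPM in vehicle PSF-RIP, against 14004 and 12465 CPM in the inputs. ATP8, the shortest, stood at 500.2 and 452 CPM in No.10-3 PSF-RIP and 249 CPM in vehicle PSF-RIP, against 370 and 940 CPM in the inputs. ATP8 is thus the exception on library totals, since its No.10-3 libraries fell between the inputs. Its counts were 760 and 1523 in No.10-3 PSF-RIP, 544 in vehicle PSF-RIP, and 1483 and 2898 in the inputs, so counting error is small beside the gap between the inputs. How reads in the stretch shared by ATP8 and ATP6 were assigned is not given in the sources used here, which limits both values.

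**Figure D1:**
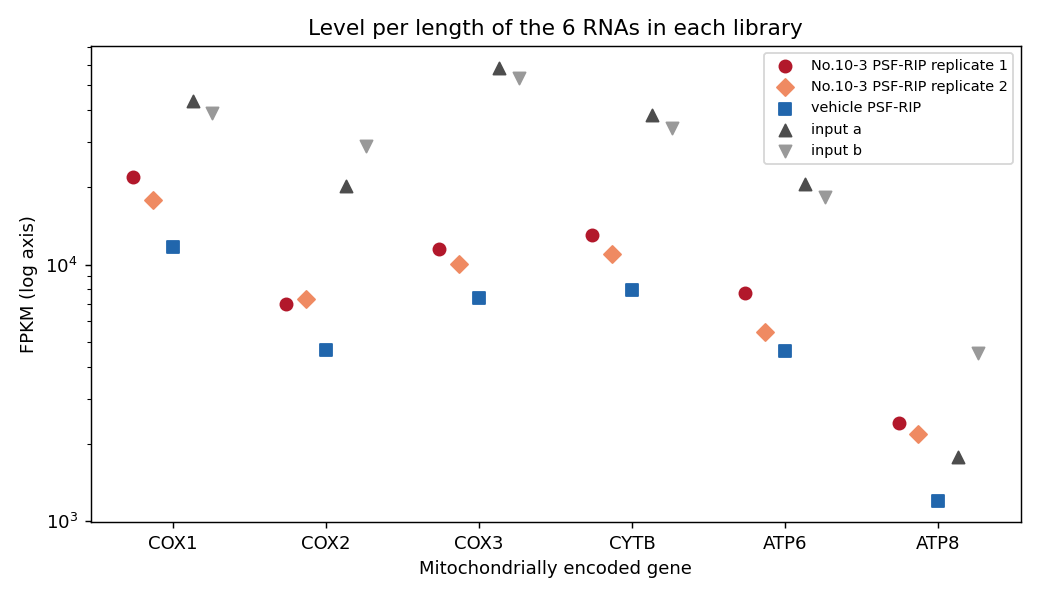
Counts scaled to library total and gene length (FPKM, log axis) of the 6 RNAs in each library, with 1 point per library. COX3 was first among the 6 in both inputs and came after COX1 and CYTB in every PSF-RIP library, and ATP8 was last in all 5.

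Per length, the order of the RNAs differed between PSF-RIP and input, as the plot of FPKM by library shows. In No.10-3 PSF-RIP, COX1 was first at 19835 ± 2835 FPKM (SD, n = 2, as below), followed by CYTB at 11980 ± 1402 and COX3 at 10774 ± 1079, whose libraries overlapped. COX2 at 7191 ± 255 and ATP6 at 6614 ± 1611 FPKM also overlapped, and ATP8 was last at 2300 ± 164. The vehicle PSF-RIP library had the same order as these means. COX1 stood there at 11696, CYTB at 7940.5, COX3 at 7394, COX2 at 4644, ATP6 at 4585.5 and ATP8 at 1204.5 FPKM. Within No.10-3 replicate 1, ATP6 came before COX2. CYTB stood above COX3 within each PSF-RIP library. The FPKM of COX3 over that of CYTB was 0.89 and 0.91 in No.10-3 PSF-RIP and 0.93 in vehicle PSF-RIP. In the inputs COX3 was first at 55947 ± 3538 FPKM, and its libraries did not overlap those of COX1 at 41031 ± 3159. CYTB followed at 35974 ± 2930 FPKM, then COX2 at 24572 ± 6036 and ATP6 at 19434 ± 1599, which overlapped, and ATP8 at 3164 ± 1948.

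Ratios between the RNAs of a library need no scaling between libraries. The FPKM of COX3 over that of COX1 was 0.528 and 0.561 in No.10-3 PSF-RIP and 0.632 in vehicle PSF-RIP, against 1.35 and 1.38 in the inputs. COX1 made up 49.5% and 48.1% of the 6 RNAs' counts in No.10-3 PSF-RIP and 45.7% in vehicle PSF-RIP, against 36.2% and 34.5% in the inputs. COX3 made up 13.3% and 13.7% in No.10-3 PSF-RIP and 14.7% in vehicle PSF-RIP, against 24.9% and 24.1% in the inputs. The PSF-RIP libraries thus held relatively more COX1 and less COX3 than either input, with gaps larger than those between libraries of a group. CYTB had nearly the same share everywhere, at 21.7% and 22.0% in No.10-3 PSF-RIP and 23.0% in vehicle PSF-RIP, against 23.6% and 22.3% in the inputs. ATP6, at 6.53 to 7.92% over the 5 libraries, and COX2, at 7.04 to 11.4%, did not separate PSF-RIP from input either. Shares have a fixed sum, so a flat share is not a flat ratio. Over COX1, the FPKM of CYTB was 0.594 and 0.616 in No.10-3 PSF-RIP and 0.679 in vehicle PSF-RIP, against 0.879 and 0.874 in the inputs. For ATP6 this ratio was 0.307 to 0.392 in PSF-RIP and 0.472 to 0.475 in the inputs. For COX2 it was 0.321 to 0.413 and 0.469 to 0.743. ATP8 over COX1 overlapped, at 0.10 to 0.12 and 0.04 to 0.12. ATP8 made up 0.735% and 0.792% in No.10-3 PSF-RIP and 0.632% in vehicle PSF-RIP, against 0.201% and 0.542% in the inputs. The FPKM of ATP6 over that of ATP8, which share an mRNA, was 3.21 and 2.51 in No.10-3 PSF-RIP and 3.81 in vehicle PSF-RIP, against 11.5 and 4.03 in the inputs.

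**Figure D2:**
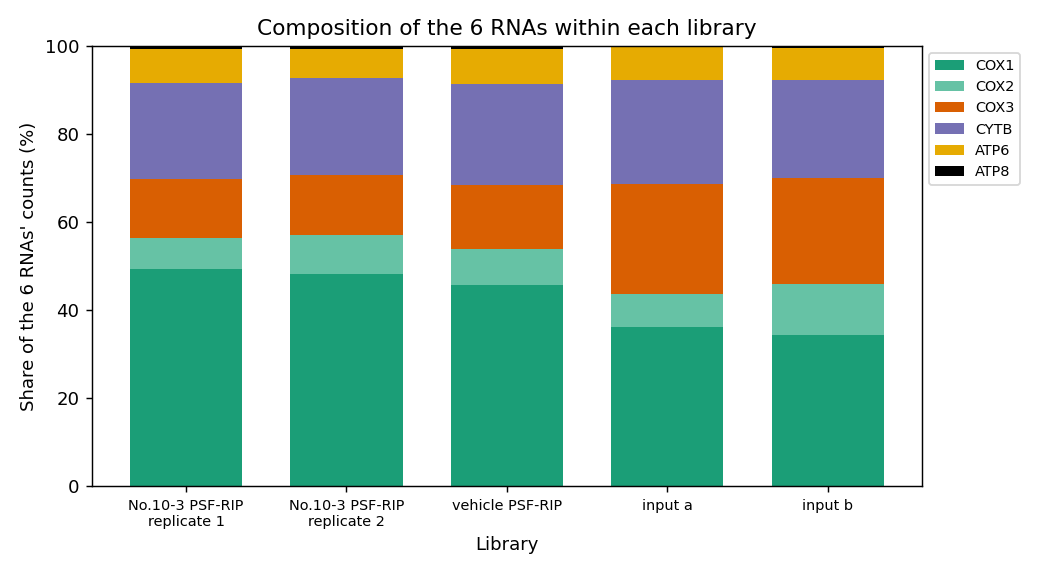
Share of the 6 RNAs' summed counts (%) taken by each RNA, 1 bar per library. COX1 takes 45.7 to 49.5% in the PSF-RIP libraries and 34.5 to 36.2% in the inputs, while COX3 takes 13.3 to 14.7% in the PSF-RIP libraries and 24.1 to 24.9% in the inputs.

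All 5 libraries were fitted together with edgeR's quasi-likelihood test after TMM scaling. The RNAs were chosen by symbol with their counts in these PSF-RIP and input libraries known, so the values over input are a description and no test. In No.10-3 PSF-RIP over input, the log2 change was -4.71 for COX3 (SE 0.65), -4.13 for COX2 (SE 0.60), -3.92 for CYTB (SE 0.62), -3.88 for ATP6 (SE 0.59), -3.38 for COX1 (SE 0.62) and -2.82 for ATP8 (SE 0.50). Their median was -3.90, against 0.08 over all 13321 tested genes. In vehicle PSF-RIP over input, COX3 was again lowest at -5.27 (SE 0.91) and ATP8 highest at -3.77 (SE 0.70), with a median of -4.48 against 0.03 over all genes. COX2 stood at -4.77, CYTB at -4.53, ATP6 at -4.44 and COX1 at -4.16. Both comparisons use the same inputs, so the like order of the RNAs in them is not independent.

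The fit called all 6 lower with No.10-3, where 6.50% of all genes were called lower and 4.98% higher, and all 6 lower with vehicle, where 10.4% were called lower and 10.0% higher. Nothing is read from these counts, since the same contrasts were known when the RNAs were chosen. Without input b the call was lost for COX1 (adjusted p = 0.0585 for No.10-3 and 0.0720 for vehicle, edgeR) and for ATP8 with No.10-3 (adjusted p = 0.124), with log2 changes of -3.41, -4.20 and -1.93. ATP8 with vehicle kept its call without input b but moved to -2.88 (adjusted p = 0.0405, edgeR). On TMM-scaled CPM all 3 PSF-RIP libraries lay below both inputs for 6 of 6 RNAs, as for 25.1% of genes. On library totals the same held for 5 of 6, all but ATP8, and for 0.571% of genes. The size of the change depends on the scaling: on library totals the typical gene shifted by 2.43 log2 units with No.10-3 and 2.37 with vehicle, and the medians of the 6 were -1.57 and -2.13. ATP8 with No.10-3 then stood at -0.46 and lost its call (adjusted p = 0.294, edgeR).

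**Figure D3:**
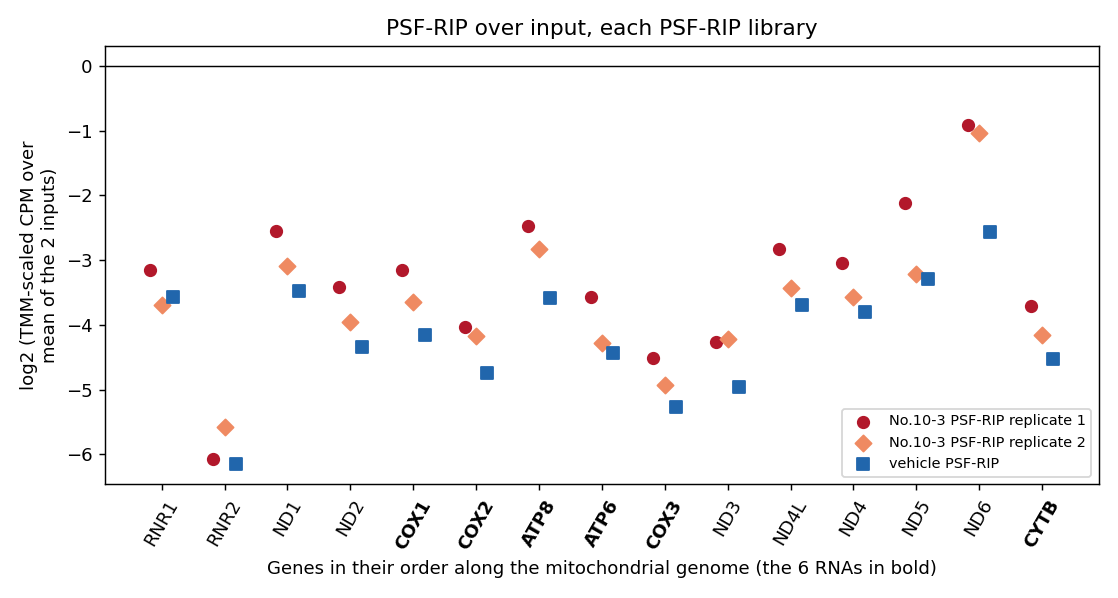
Log2 of TMM-scaled CPM (plus 0.5) over the mean of the inputs on the same log scale, for the 15 mitochondrially encoded genes of the table in genome order, 1 point per PSF-RIP library. All points lie below 0, with RNR2 lowest, ND6 highest, and COX3 the lowest of the 6 RNAs in each library.

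On the TMM scale the other mitochondrially encoded RNAs were also lower in PSF-RIP than in input, to varying extent. The 7 complex I RNAs had a median log2 change of -3.10 with No.10-3 and -3.69 with vehicle, and were called lower in 6 and 7 cases. ND3, which lies next to COX3, stood lowest among them at -4.32 with No.10-3 and -5.04 with vehicle. ND6, the mRNA of the opposite strand, stood highest at -1.00 with No.10-3 and -2.60 with vehicle, and did not pass the test with No.10-3 (adjusted p = 0.127, edgeR). On library totals ND6 stood higher in both No.10-3 PSF-RIP libraries, at 1059 and 1117 CPM, and at 362 CPM in vehicle PSF-RIP, against 355 and 496 CPM in the inputs. ND5 was next to highest, at -2.56 with No.10-3 and -3.30 with vehicle. On library totals ND5 stood at 20626 and 11221 CPM in No.10-3 PSF-RIP and 9854 CPM in vehicle PSF-RIP, against 19055 and 18836 CPM in the inputs, so that replicate 1 lay above both inputs. The mitochondrial ribosomal RNA RNR1 stood at -3.42 with No.10-3 and -3.59 with vehicle, and RNR2 at -5.84 with No.10-3 and -6.20 with vehicle, both low in all libraries, at 455 ± 72.7 CPM or less per group. The 6 RNAs made up 56.0% and 60.2% of mitochondrially encoded counts in No.10-3 PSF-RIP and 57.1% in vehicle PSF-RIP, against 70.1% and 71.0% in the inputs. Within the mitochondrial RNAs, too, the summed share of these 6 was thus lower in each PSF-RIP library than in either input. The sum does not speak for each RNA. COX1 alone took a larger share of mitochondrially encoded counts in every PSF-RIP library than in either input. The share of ATP8 was below both inputs in no PSF-RIP library. Log2 changes over input with No.10-3 overlapped, at -4.71 to -2.82 for the 6 and -4.32 to -1.00 for the complex I RNAs.

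Genes abundant in the inputs are given for their values alone, since choosing them by their input level favours a low value over input. Of 15 genes outside the mitochondrial genome with a mean of at least 1000 CPM in the inputs, 13 were called lower with No.10-3, with a median log2 change of -4.61, and 9 stood at or below the median of the 6 RNAs. They are mostly noncoding RNAs and include RN7SL2 at -7.73, RPPH1 at -7.54 and RN7SK at -5.90, while the nuclear RNA MALAT1 stood at 0.01. The mRNAs among them, TPT1 and FTH1, stood at -3.63 and -1.75. On library totals TPT1 lay below both inputs in every PSF-RIP library. FTH1 stood at 4820 and 2597 CPM in No.10-3 PSF-RIP and 4225 CPM in vehicle PSF-RIP, against 2294 and 2723 CPM in the inputs. NEAT1, the RNA of paraspeckles, stood at -0.96 and did not pass the test. Short mRNAs were also low more often. Of 1703 nuclear protein-coding genes of up to 1542 nucleotides, the length of COX1, 11.9% were called lower with No.10-3 and 16 stood at or below ATP8, the highest of the 6, against 4.27% and 12 of the 10103 longer ones. The part of length and abundance in the values of the 6 RNAs was not tested. These groups of genes were set after the data were seen.

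The series asks by its title whether a small molecule alters the binding of RNA by PSF, and the No.10-3 and vehicle PSF-RIP libraries bear on it. All 6 RNAs stood higher in both No.10-3 PSF-RIP libraries than in vehicle PSF-RIP, as did 33.3% of all genes on TMM-scaled CPM and 31.7% on library totals, but none passed the test. The fitted log2 change was 0.95 for ATP8 (SE 0.60), 0.78 for COX1 (SE 0.72), 0.64 for COX2 (SE 0.67), 0.61 for CYTB (SE 0.69) and 0.56 for both COX3 (SE 0.69) and ATP6 (SE 0.66), with adjusted p of 0.849 to 0.923 by edgeR. Their median was 0.63, against 0.04 over all genes. Among all 13321 genes edgeR called 0 (0% higher and 0% lower), with 846 at an unadjusted p under 0.05, and DESeq2 called 0, with 273. If no gene differed, about 666 would be expected under 0.05. Earlier results of this comparison were known when the RNAs were chosen.

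COX1 stood 1.01 log2 units above vehicle in replicate 1 and 0.51 in replicate 2, COX3 0.75 and 0.34, and CYTB 0.82 and 0.37. ATP6 differed most between the replicates, at 0.87 and 0.16, and COX2 least, at 0.71 and 0.57, while ATP8 stood at 1.11 and 0.76. On this TMM scale replicate 1 was the higher for all 6 (on library totals COX2 stood higher in replicate 2), and for COX3, CYTB and ATP6 its gap to replicate 2 (0.41, 0.45 and 0.71) was wider than that of replicate 2 to vehicle. The fitted values and the calls depended on these libraries. Without replicate 1, the log2 change was 0.50 for COX1, 0.55 for COX2, 0.32 for COX3, 0.36 for CYTB, 0.14 for ATP6 and 0.75 for ATP8. Without replicate 2, it was 1.015 for COX1, 0.71 for COX2, 0.76 for COX3, 0.82 for CYTB, 0.87 for ATP6 and 1.12 for ATP8. In those fits each PSF-RIP group has 1 library, and the spread comes from the inputs alone. Some of the 6 passed the test in them, and nothing is read from those calls.

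**Figure D4:**
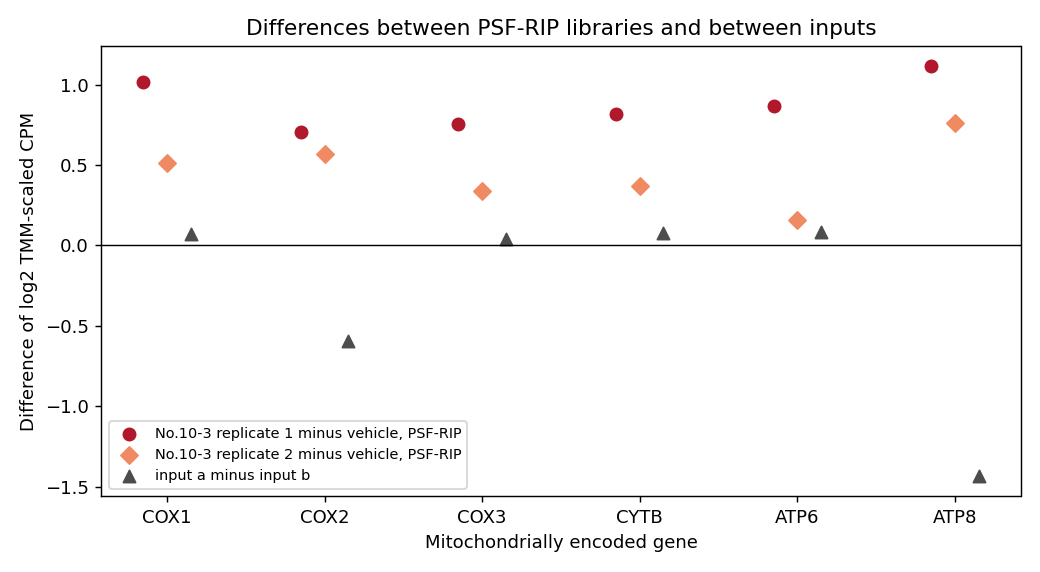
Difference of log2 TMM-scaled CPM (plus 0.5) for each No.10-3 PSF-RIP library minus the vehicle PSF-RIP library, and for input a minus input b. All 12 PSF-RIP differences are above 0, but they share 1 vehicle library and are not independent. Both No.10-3 libraries lay above vehicle for 33.3% of all genes on this scale. The inputs differ by at most 0.08 for COX1, COX3, CYTB and ATP6 but by -0.59 for COX2 and -1.43 for ATP8.

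The inputs show how far the RNAs differed before precipitation, even though their columns are not named by treatment. Input a minus input b was 0.07 log2 units for COX1, 0.04 for COX3, 0.08 for CYTB and 0.08 for ATP6. With 1 input library per treatment, these gaps have no replicate check. For COX2 the inputs differed by -0.59, about as much as its PSF-RIP libraries did, and for ATP8 by -1.43, more than its PSF-RIP libraries did. The part of the amount of RNA in the cells in the differences between No.10-3 and vehicle PSF-RIP was not tested.

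The complex I RNAs had a median log2 change of 0.69 between No.10-3 and vehicle PSF-RIP, close to the 0.63 of the 6, and 0 of 7 passed the test. ND6 stood highest at 1.60 (SE 0.58, adjusted p = 0.783, edgeR). RNR1 stood at 0.17 and RNR2 at 0.37.

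The mRNAs of nuclear genes whose proteins assemble with the 6 products were much nearer to the typical gene over input than the 6 were. All the same, they were called lower more often than genes in general. Of all genes, 6.50% were called lower with No.10-3 and 10.4% with vehicle. Of nuclear protein-coding genes of up to 1542 nucleotides, 11.9% and 15.9% were. The part of length in the calls of these subunits was not tested. Nuclear subunits of complex IV had a median log2 change of -0.49 with No.10-3, where 4 of 11 were called lower and 0 higher, and of -1.63 with vehicle, where 6 were called lower. COX6C stood lowest at -1.71 and COX5B highest at 0.03 with No.10-3. Nuclear subunits of complex III had medians of -0.82 with No.10-3 and -0.96 with vehicle. UQCRH stood at -1.86 with No.10-3 and CYC1, which encodes cytochrome c1, at 1.44, and 3 of 9 were called lower and 1 higher. With vehicle, 2 of 9 were called lower and 1 higher. Nuclear subunits of the ATP synthase had medians of -0.65 with No.10-3 and -1.23 with vehicle. With No.10-3, ATP5F1E stood lowest at -2.50 and ATP5F1B, the catalytic subunit, highest at 0.97, and 3 of 15 were called lower. With vehicle, 5 of 15 were called lower. None of these 35 mRNAs stood as low as ATP8, the highest of the 6. Between No.10-3 and vehicle PSF-RIP, 11 of 11 nuclear complex IV mRNAs, 7 of 9 of complex III and 12 of 15 of complex V had a log2 change above 0 (medians 0.79, 0.31 and 0.56), and 0 of 35 passed the test.

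Proteins that make, cut or stabilise mitochondrial RNA had a median log2 change over input of -0.13 with No.10-3, with 2 of 23 called higher and 2 lower. Of all genes, 4.98% were called higher and 6.50% lower. POLRMT, the mitochondrial RNA polymerase, stood highest at 2.23, on 4 counts in each input, and TRMT10C, a subunit of mitochondrial RNase P, lowest at -2.10, on 8 and 35 counts in No.10-3 PSF-RIP. Assembly factors of complexes IV and V had a median of -0.79, with 1 of 18 called higher and 2 lower. COX20, which helps COX2 to mature, stood lowest at -2.20, and SCO2, a copper chaperone of COX2, highest at 1.90, on 5 and 2 counts in the inputs. Between No.10-3 and vehicle PSF-RIP 0 genes of either list passed the test.

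By the root mean square difference of centred log2 TMM-scaled CPM over the 5 libraries, the RNAs outside the mitochondrial genome most like the mean of the 6 were SCARNA16 (0.189), TPT1 (0.223), RPS13 (0.261), RPL26 (0.387) and RPS15A (0.393), among 1252 with a mean of at least 100 CPM. SCARNA16 is a small Cajal body RNA, TPT1 encodes a translationally controlled protein, and the others encode cytosolic ribosomal proteins. TPT1 stood at 425 and 490 CPM in No.10-3 PSF-RIP and 359 CPM in vehicle PSF-RIP, against 1019 and 1191 CPM in the inputs. Among the 6 themselves, CYTB lay nearest to their mean (0.135) and ATP8 farthest (0.634), and ND2 of complex I was nearer still (0.092).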

How the data were processed

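The authors deposited 1 table that gives, per Entrez gene, counts, lengths and FPKM for each library. The submitters' processing notes list TopHat2 2.1.0, Bowtie2 2.2.6, Bowtie and hg19 with no role. Per the labels' protocols, libraries were stranded (Illumina TruSeq). Not given in the sources used here are the counter, its strand setting, its handling of multiply mapped reads and its gene models, so reads antisense to the 6 genes, or from their nuclear copies (0 such symbols matched), cannot be told apart from theirs. The counts, deposited as whole numbers, were treated as raw. The deposited FPKM values equal count over length and library total to within 5.9e-08, and the FPKM printed were computed from the counts.

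The columns named for the compound carry neither PSF nor RIP and were taken as the No.10-3 PSF-RIP libraries because 2 other columns are named input. A minimum mean of 1 CPM over the 5 libraries left 13321 genes, which were tested with edgeR 4.0.16 in R 4.3.3 (TMM, glmQLFit, glmQLFTest, 3 groups, 2 residual degrees of freedom), with Benjamini-Hochberg adjustment over all of them and a threshold of 0.05. The vehicle PSF-RIP library was assumed to vary like the other groups. The SE is the log2 change over the square root of F. The procedure was checked on simulated counts in which only some genes were changed, in No.10-3 PSF-RIP alone. Those counts lack the large shift in composition between PSF-RIP and input, so the check does not cover it. Alternatives were DESeq2 1.42.0, 4 other scalings, 2 other filters, leaving out libraries, and a fit of the 3 PSF-RIP libraries. Biotypes and chromosomes came from RefSeq (GRCh38.p14), through the Entrez ID (23692 genes matched). Its start positions served only to order the mitochondrial genes. Genes without a symbol (1962, at 0.11 to 0.504% of counts) were kept. The 6 genes, the lists and the tests were chosen with earlier results of these data known. Named genes are the 6, the extremes of each list over input with No.10-3, ND5, ND6, RNR1 and RNR2, and the 5 most alike. ND2, ND3 and the genes abundant in the inputs were added after their values were seen. The extremes of the luminal marker list are not reported here.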

Additional observations from a re-analysis of the deposited data

How the results depend on the processing

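All 6 RNAs stood below input and above vehicle PSF-RIP under every alternative run. With library totals only, the medians over input moved to -1.57 with No.10-3 and -2.13 with vehicle, and the genes called over input moved to 11586 (11533 higher, 53 lower) and 9775 (9725 higher, 50 lower), against 1529 (663 higher, 866 lower) and 2728 (1338 higher, 1390 lower), since that scaling shifts the typical gene. DESeq2 called 883 and 1664 genes over input. With no filter on low counts, 9 genes were called between No.10-3 and vehicle PSF-RIP, all lower. Leaving out 1 library gave 234 to 4073 genes called with No.10-3 over input, 332 to 4942 with vehicle over input, and 0 to 866 between No.10-3 and vehicle PSF-RIP (866 without replicate 1 and 26 without replicate 2); the lowest counts over input came without input b (400 and 914 without input a). The medians of the 6 ranged in these fits from -4.18 to -3.65 with No.10-3 over input, from -4.50 to -4.44 with vehicle over input and from 0.43 to 0.85 between No.10-3 and vehicle PSF-RIP. No paired analysis was possible because the input columns carry no treatment or replicate that would pair them with PSF-RIP libraries, and vehicle PSF-RIP has 1 library. Depth limits the low genes named (under 10 counts in a library), not the 6.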
